A study of Homo sapiens with 36 samples.

Results

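The genes described here stayed higher in A549 cells long after IL-1β had been taken away from them. A549 is an established human lung adenocarcinoma line. The genes were chosen by their measured values. For each library, expression was taken as CPM, the counts of a gene scaled to a fixed total of all gene counts, 0.5 was added, and the log2 values of the 3 IL-1β libraries and the 3 untreated libraries of a time point were averaged and subtracted. A gene was included when its mean CPM over all libraries was at least 1, this difference was at least 1 at days 15 and 21 of exposure, and it was at least 0.7 at days 15 and 30 posttreatment. Of 63677 genes counted, 15384 had the required mean CPM, 228 also met the conditions on exposure, and 118 met all conditions. They comprise 109 protein-coding genes, 5 long non-coding RNAs and 2 pseudogenes, and 2 identifiers are not in the annotation used. Values at the 4 time points of the rule are given as a description and were not tested, and the tests concern day 6 of exposure and day 6 posttreatment.

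A549 cells were cultured with IL-1β at 1 ng/ml, and were collected at days 6, 15 and 21 of exposure. After 21 days IL-1β was withdrawn, and the cells were collected at days 6, 15 and 30 posttreatment. Each IL-1β group had an untreated control group of the same time point, grown without IL-1β, and there were 3 replicates in each of the 12 groups. All cells were of this 1 line, the labels name no introduced allele, and treated and untreated cells were split every few days in the same medium. The labels do not say whether replicates were separate cultures, or whether a culture was followed through the time course, so p-values measure the spread between these libraries, which may be technical.

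IL-1β binds its receptor and acts through the MyD88, IRAK and TRAF6 adaptor chain, which frees NF-κB from its inhibitor and activates AP-1 through stress kinases. Among the targets of NF-κB are its own inhibitors, which end the response once the cytokine is gone, as well as cytokines that act on the same cell. In carcinoma cells IL-1β is known for loosening the epithelial state, with changes in keratins, adhesion, matrix and motility genes, a programme called epithelial-to-mesenchymal transition (EMT).

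Library depth ranged from 9116032 to 23570026 gene counts. In 11 of the 36 libraries mitochondrial genes took 11.8% to 24.6% of these counts, against 5.61% to 7.75% in the other 25. At day 6 posttreatment they were replicates 1 and 2 of the control and replicate 2 of the withdrawn cells, and at day 6 of exposure replicate 2 of the control. Of the markers of other cell types, CD3E and CD3D were at 0 in all 36 libraries, and the 8 fibroblast markers together reached 4.80 CPM at most. The sum of the 10 leukocyte markers was 1.598 to 11.2 CPM in control and 2.56 to 18.0 CPM in IL-1β libraries. CD14 and LYZ were above 0 in every library, CD14 at 1.30 to 16.9 CPM and LYZ at 0.200 to 1.16 CPM. The 7 epithelial markers of A549 summed to 7443 to 15968 CPM in control and 2963 to 11487 CPM in IL-1β libraries. Of these, ALDH1A1, KRT8 and KRT18 were the highest, with medians of 4678, 1978 and 1053 CPM over all libraries. EPCAM was at 1.43 CPM or less throughout, and NKX2-1 at 0.329 CPM or less, with 11 libraries at 0. The part of these values in the results below was not tested.

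Promoters of 83 of the 118 genes were found in a RefSeq table of GRCh38.p14, each covering 250 bases before to 50 bases after the gene's start. The kappa B motif, GGG followed by 2 of any base and TTTCC on either strand, was present in 7 of the 83 (8.43%), against 1.92% of all 27305 promoters in the table. The 7 genes were NFKBIA, IL6, TNFAIP3, CCL20, TNFRSF9, SERPINB7 and MIR100HG. The AP-1 motif, TGANTCA, was present in 13 of the 83 (15.7%), against 7.76% of all promoters. The interferon response core, GAAA on both sides of 2 of any base, was present in 5 (6.02% against 3.65%). The E-box CAGGTG, to which SNAI and ZEB factors bind, was present in 16 (19.3% against 20.6%), the TATA motif TATAAA in 11 (13.3% against 11.95%) and the RUNX motif TGTGGT in 9 (10.8% against 13.1%). Matches were counted on both strands and separately for each motif, also where they overlap. A match is a run of letters in this window, not a measured binding site.

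The 4 most abundant of the genes with a kappa B or AP-1 match are shown: an inhibitor, a protease and a pair of cytokines. TNFAIP3 and GBP1 were added after their values were seen, the first as a gene whose response shrank after withdrawal and the second as one of the interferon-inducible genes. Capitals mark kappa B matches in NFKBIA (chr14:35404700-35404999, minus strand), IL6 (chr7:22726950-22727249, plus strand) and TNFAIP3 (chr6:137867009-137867308, plus strand), AP-1 matches in CPA4 (chr7:130292911-130293210, plus strand) and IL11 (chr19:55370414-55370713, minus strand), and the interferon response core in GBP1 (chr1:89065159-89065458, minus strand). All are read 5′ to 3′ in the direction of the gene.
NFKBIA: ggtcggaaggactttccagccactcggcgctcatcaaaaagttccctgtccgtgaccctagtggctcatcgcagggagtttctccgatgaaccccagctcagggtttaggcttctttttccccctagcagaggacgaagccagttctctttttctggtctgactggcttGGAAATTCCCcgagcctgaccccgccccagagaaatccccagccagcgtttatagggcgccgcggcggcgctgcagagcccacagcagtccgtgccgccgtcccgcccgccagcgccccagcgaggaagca
TNFAIP3: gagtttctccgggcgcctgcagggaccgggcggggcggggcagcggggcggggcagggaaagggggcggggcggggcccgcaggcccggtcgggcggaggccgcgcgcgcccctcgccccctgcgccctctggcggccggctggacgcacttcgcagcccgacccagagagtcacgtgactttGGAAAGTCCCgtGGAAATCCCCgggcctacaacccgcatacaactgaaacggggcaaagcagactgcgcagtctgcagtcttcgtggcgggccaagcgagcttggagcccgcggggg
IL6: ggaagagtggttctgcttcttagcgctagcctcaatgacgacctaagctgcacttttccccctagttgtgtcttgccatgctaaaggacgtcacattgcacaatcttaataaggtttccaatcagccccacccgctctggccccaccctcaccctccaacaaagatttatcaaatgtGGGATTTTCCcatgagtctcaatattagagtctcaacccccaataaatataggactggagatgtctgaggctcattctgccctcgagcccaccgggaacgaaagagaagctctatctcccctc
IL11: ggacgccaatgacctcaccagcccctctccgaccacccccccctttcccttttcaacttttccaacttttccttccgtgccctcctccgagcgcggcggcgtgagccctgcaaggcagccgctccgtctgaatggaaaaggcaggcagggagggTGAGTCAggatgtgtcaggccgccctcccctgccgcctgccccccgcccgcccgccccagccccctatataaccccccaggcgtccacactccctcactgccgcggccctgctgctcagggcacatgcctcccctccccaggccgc
CPA4: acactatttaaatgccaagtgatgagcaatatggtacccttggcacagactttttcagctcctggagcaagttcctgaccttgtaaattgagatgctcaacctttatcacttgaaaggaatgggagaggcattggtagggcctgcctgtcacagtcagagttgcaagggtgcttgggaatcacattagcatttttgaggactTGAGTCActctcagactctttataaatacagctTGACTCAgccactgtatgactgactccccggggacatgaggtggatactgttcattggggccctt
GBP1: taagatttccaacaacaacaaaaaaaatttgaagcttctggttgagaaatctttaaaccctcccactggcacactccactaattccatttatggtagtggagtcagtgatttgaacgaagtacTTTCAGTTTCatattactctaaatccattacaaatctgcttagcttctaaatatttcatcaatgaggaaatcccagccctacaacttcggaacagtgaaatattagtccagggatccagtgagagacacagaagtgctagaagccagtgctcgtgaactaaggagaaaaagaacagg
The matches in NFKBIA and IL6 begin 81 and 73 bases before the start, and TNFAIP3 holds 2 matches, beginning 67 and 55 bases before it. CPA4 also holds 2, beginning 48 and 15 bases before its start.

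Most of the genes were already higher after 6 days of IL-1β and were still higher 6 days after its removal. All 118 passed the filter on low counts. With p-values of edgeR's quasi-likelihood test adjusted by Benjamini-Hochberg over 19180 genes, and a fold change over 2 required, 93 of the 118 (78.8%) were higher at day 6 of exposure, when 1.52% of all genes tested were called higher. At day 6 posttreatment 88 (74.6%) were higher, beside 1.08% of all genes tested. Of the 118 genes, 70 were higher at both time points, 23 at day 6 of exposure alone, 18 at day 6 posttreatment alone and 7 at neither. All 3 IL-1β libraries lay above all 3 controls for 114 of the genes at day 6 of exposure (10.6% of all genes tested) and for 108 at day 6 posttreatment (5.51%). The median log2 fold change of the 118 genes was 1.82 at day 6 of exposure and 1.73 at day 6 posttreatment, beside -0.02 and -0.0014 over all genes tested. In RNA from whole cultures, more cells that express a gene and more RNA per cell cannot be told apart.

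The number called at day 6 posttreatment depended on which libraries were in the fit. Without replicate 1 it was 13, beside 0.0937% of all genes tested in that fit, and without replicate 2 it was 50, beside 0.493%. With the 6 libraries of that time point fitted alone it was 0, beside 0.0% of all genes. In that fit 107 of 117 genes tested had an unadjusted p under 0.05, beside 5.69% of all genes. At day 6 of exposure it was 44 without replicate 1, beside 0.557%. Without the 11 libraries of high mitochondrial share the numbers were 97 at day 6 of exposure and 91 at day 6 posttreatment, beside 1.92% and 1.19% of all genes. The last comparison has a single control library at day 6 posttreatment, which is assumed to vary like the other groups. In it the fold change of 25 genes at day 6 posttreatment was larger by over 1.5 times, and none was smaller by as much. Those described below are IL6, STC1, BCL2A1, RNF144B, FOSL1, BHLHE41, CREB3L1, SP140, GBP1, TNC, CRISPLD2, CPA4, PTPRD, KCNQ3, XDH, CGB8, MARCHF4, PLEK2, EMP1, SBSN, LY6K, EVI2B, DAW1, LINC00707 and LINC02015.

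**Figure D1:**
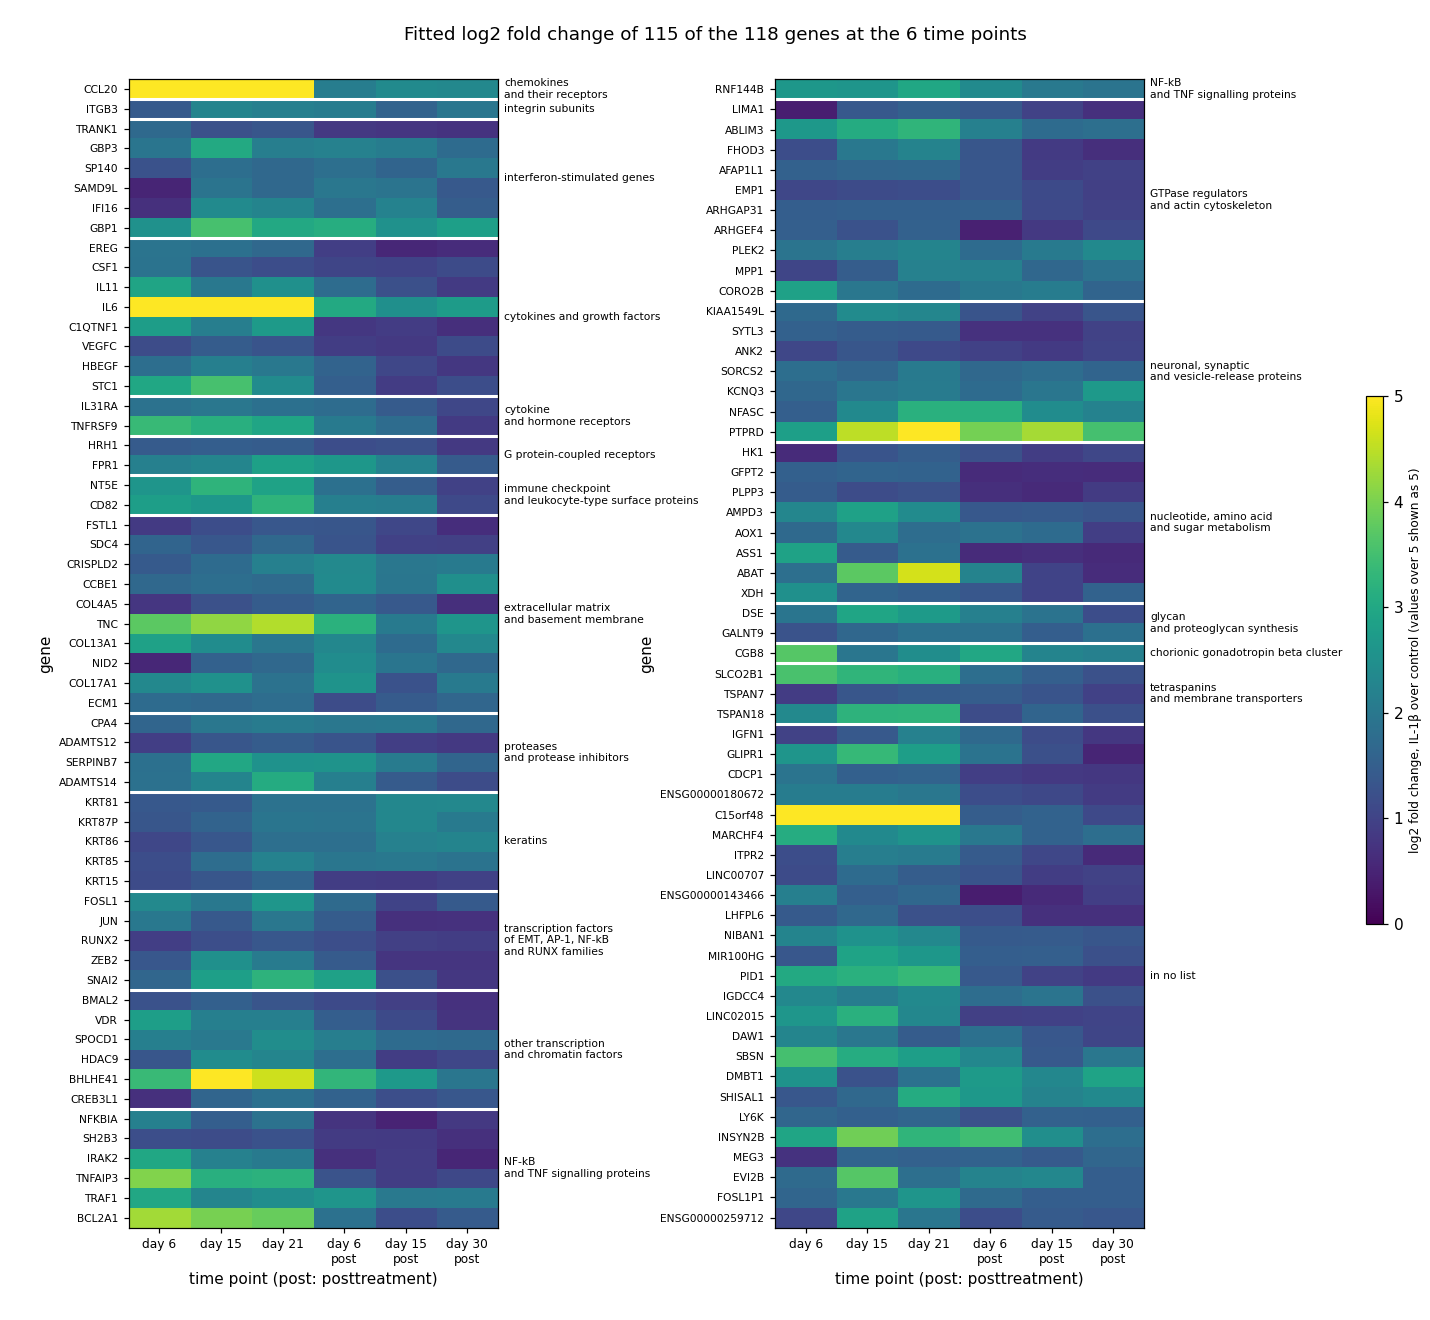
Fitted log2 fold change (colour, IL-1β over control) of 115 of the 118 genes (rows, grouped by functional list) at the 6 time points (columns, 3 libraries per group). CCL20, C15orf48 and IL6 exceed 5 during exposure and lie between 1.09 and 3.03 posttreatment.

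**Figure D2:**
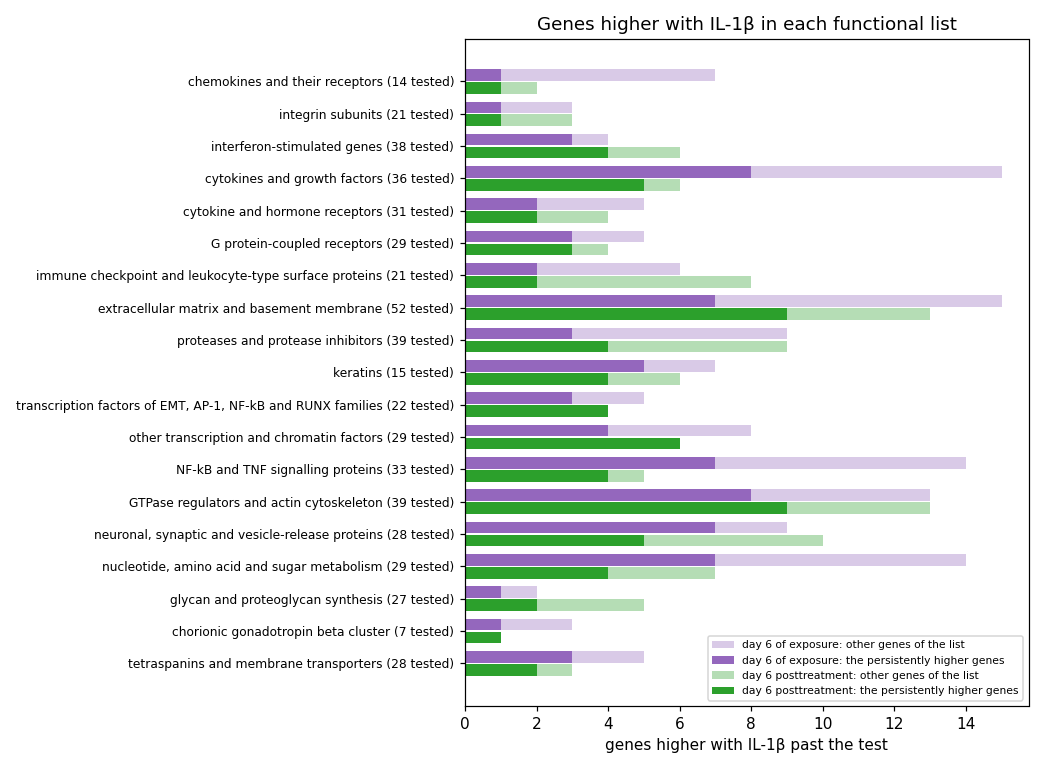
Number of genes higher with IL-1β past the test in each functional list (rows, with the number tested) at day 6 of exposure and day 6 posttreatment. Dark bars are the persistently higher genes and pale extensions are the other genes of the list, and matrix genes and actin regulators hold 9 each of the dark counts at day 6 posttreatment.

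Of the listed proteins that carry or restrain NF-κB signalling, 7 were among the 118. The lists were matched by symbol, so identifiers without a symbol are in none of them. All 7 were higher at day 6 of exposure, and 4 were higher at day 6 posttreatment. Their median log2 fold change was 2.98 and then 1.27. NFKBIA encodes IκBα, the inhibitor that holds NF-κB in the cytoplasm. At day 6 of exposure it was at 34.5, 39.8 and 31.9 CPM in the control libraries and 174, 176 and 130 CPM in the IL-1β libraries. At day 6 posttreatment the values were 38.7, 31.7 and 36.3 CPM in control and 63.0, 49.5 and 66.5 CPM in withdrawn cells. The groups did not overlap at either time, and the control level was the same within its spread. The log2 fold change was 2.17 (SE 0.20, adjusted p = 1.54e-08) and then 0.75 (SE 0.19, adjusted p = 0.0274), the latter under the 2-fold threshold.

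TNFAIP3 encodes A20, an ubiquitin-editing enzyme that shuts off the signal below the receptor. Its control libraries held 7.84, 6.09 and 6.79 CPM at day 6 of exposure, and its IL-1β libraries 127, 132 and 84.8 CPM. At day 6 posttreatment the control libraries held 8.12, 6.997 and 7.21 CPM, and the withdrawn cells 18.5, 16.0 and 19.3 CPM. Most of the difference was lost, but withdrawn and control libraries stayed apart, with a log2 fold change of 4.05 (SE 0.23) and then 1.27 (SE 0.21, adjusted p = 0.00047). IRAK2, an IRAK family member of the IL-1 receptor complex, had a log2 fold change of 2.98 at day 6 of exposure (adjusted p = 4.9e-09). Later, at day 6 posttreatment, the libraries were at 16.6, 14.2 and 18.0 CPM in control and 36.2, 17.6 and 24.8 CPM in withdrawn cells, so that 1 withdrawn library lay within the controls (log2 fold change 0.69, adjusted p = 0.174).

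The group held 4 other proteins. TRAF1, an adaptor of TNF receptors, was at 1.93, 1.21 and 1.42 CPM in control and 11.7, 8.12 and 7.42 CPM in withdrawn cells at day 6 posttreatment. Its log2 fold change was 3.00 (SE 0.51) at day 6 of exposure and 2.61 (SE 0.52, adjusted p = 0.00311) at day 6 posttreatment. RNF144B, a ubiquitin ligase, had 2.64 and 2.39, and SH2B3, an adaptor that dampens cytokine receptors, had 1.20 and 0.88 at the same times. BCL2A1, an anti-apoptotic relative of BCL2, had 4.31 and 1.87 (adjusted p = 0.0276), and the difference of -2.45 between these did not pass its own test (adjusted p = 0.267). In the whole list of 33 tested NF-κB and TNF signalling proteins, 14 were higher at day 6 of exposure and 5 at day 6 posttreatment, with 0 and 1 lower.

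The difference between the responses was tested directly. Among the 118 genes 6 had a smaller response at day 6 posttreatment than at day 6 of exposure, beside 0.136% of all genes tested, and 0 had a larger one, beside 0.073%. The 6 were CCL20, C15orf48, TNFAIP3, IRAK2, NFKBIA and the identifier ENSG00000143466, which has no symbol in the annotation used. DESeq2's Wald test also called 0 larger responses, and 34 of the 118 genes had an unadjusted p under 0.05 in edgeR's test, counting both directions, beside 3.65% of all genes tested. Without replicate 1 the smaller responses numbered 2, CCL20 and TNFAIP3, beside 0.0364% of all genes. With the high mitochondrial share as a covariate they numbered 10, which included IL6, BCL2A1, PID1 and C1QTNF1, beside 0.255% of all genes.

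**Figure D3:**
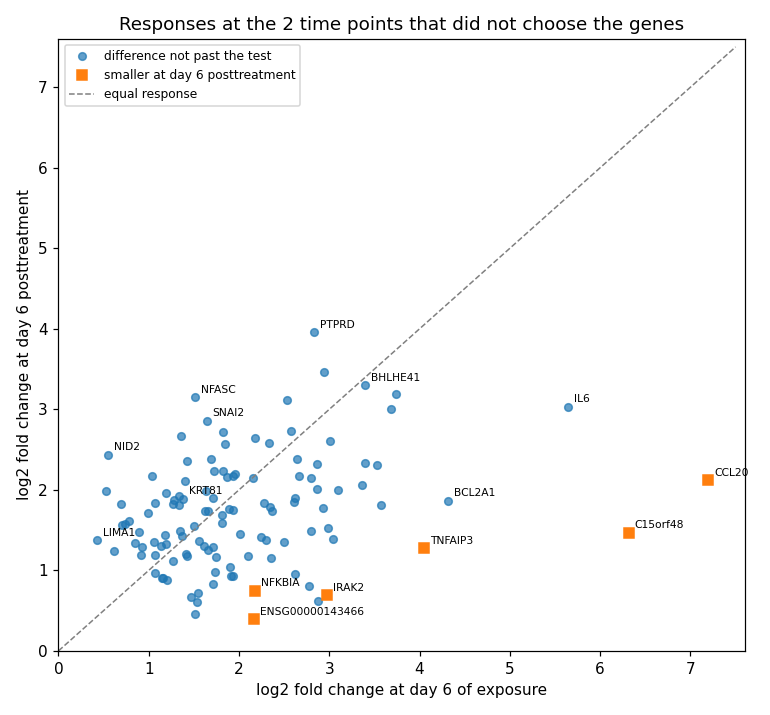
Log2 fold change at day 6 of exposure (x axis) against day 6 posttreatment (y axis) for the 118 genes, with the line of equal response. The 6 genes whose response was smaller at day 6 posttreatment past the test are squares below the line, with CCL20 (7.20 and 2.12) farthest from it.

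Secreted cytokines and growth factors made up 8 of the genes. All 8 were higher at day 6 of exposure and 5 at day 6 posttreatment, with a median log2 fold change of 2.36 and then 1.28. IL6, the founding ligand of the gp130 receptor, was at 2.16, 3.57 and 1.30 CPM in control and 136, 129 and 78.8 CPM in IL-1β libraries at day 6 of exposure. In the day 6 posttreatment libraries it was at 5.03, 6.05 and 2.40 CPM in control and 33.4, 47.1 and 27.2 CPM in withdrawn cells. The groups stayed apart, and the log2 fold change was 5.64 (SE 0.60) and then 3.03 (SE 0.54, adjusted p = 0.00087). At day 30 posttreatment, a time point of the rule, it was at 2.80, 5.02 and 0.492 CPM in control and 20.7, 23.0 and 7.11 CPM in withdrawn cells. Of the exons of IL6 9.91% overlap genes on the opposite strand, and the strand setting of the counting is not given in the sources used here.

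IL11, another gp130 ligand, was at 9.93, 9.07 and 19.6 CPM in control and 63.0, 26.2 and 44.1 CPM in withdrawn cells at day 6 posttreatment (log2 fold change 1.77, SE 0.44, adjusted p = 0.0196). CSF1, the growth factor of macrophages, was at 81.1, 68.8 and 72.8 CPM in control and 164, 131 and 163 CPM in withdrawn cells (1.04, SE 0.26, adjusted p = 0.0213). Neither gene's groups overlapped. Of the EGF receptor ligands, HBEGF had a log2 fold change of 1.82 at day 6 of exposure and 1.59 at day 6 posttreatment (adjusted p = 0.000595). EREG had 1.93 and then 0.93 (SE 0.38, adjusted p = 0.305), with 146, 195 and 91.8 CPM in control and 294, 388 and 146 CPM in withdrawn cells, which overlap. Of the 36 tested genes of the list, 15 were higher and 0 lower at day 6 of exposure, and 6 were higher and 1 lower at day 6 posttreatment. STC1, a stanniocalcin hormone, passed both tests (2.99 and 1.52). VEGFC, a lymphatic growth factor, had 1.16 and 0.91 (adjusted p = 0.0166), and C1QTNF1, a relative of C1q, had 2.78 and 0.81 (adjusted p = 0.636).

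The lists of cytokine and hormone receptors and of G protein-coupled receptors gave 2 and 3 of the genes. All 5 were higher at both time points. TNFRSF9, the costimulatory receptor 4-1BB, had a log2 fold change of 3.36 (SE 0.36) at day 6 of exposure and 2.06 (SE 0.35, adjusted p = 0.000485) at day 6 posttreatment. IL31RA, a receptor of the IL-6 receptor family, had 1.89 and 1.77 at these times. FPR1, which senses formylated peptides, was at 0.258, 0.864 and 0.816 CPM in control and 4.70, 2.67 and 5.56 CPM in withdrawn cells at day 6 posttreatment (log2 fold change 2.64, SE 0.36). The histamine receptor HRH1 had 1.43 and 1.18. In the whole lists, 5 of 31 cytokine and hormone receptors and 5 of 29 G protein-coupled receptors were higher at day 6 of exposure, and 4 of each list at day 6 posttreatment. At each time 0 of the former and 1 of the latter were lower. Of the surface proteins, NT5E, the ecto-5′-nucleotidase CD73, had a log2 fold change of 2.61 and then 1.85 (adjusted p = 0.00351), and CD82, a tetraspanin, had 2.80 and 2.15 (adjusted p = 0.00139). Of the 21 tested surface proteins of this list, 6 and then 8 were higher and 0 lower.

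Transcription factors included 5 of the EMT, AP-1, NF-κB and RUNX families. Of these 3 were higher at day 6 of exposure and 4 at day 6 posttreatment. SNAI2, the EMT repressor Slug, was at 1.76, 2.52 and 1.65 CPM in control and 5.31, 5.85 and 7.21 CPM in IL-1β libraries at day 6 of exposure (log2 fold change 1.64, SE 0.49, adjusted p = 0.0505). After withdrawal, at day 6, it was at 4.51, 4.23 and 1.72 CPM in control and 15.7, 44.9 and 13.5 CPM in withdrawn cells (2.86, SE 0.49, adjusted p = 0.000552). The highest withdrawn library is the one of high mitochondrial share, and the groups did not overlap with or without it. At day 30 posttreatment the SNAI2 libraries were at 1.99, 3.86 and 1.13 CPM in control and 3.53, 4.94 and 3.04 CPM in withdrawn cells, which overlap. Each withdrawn library was above the control of its own replicate number. The rule used this time point and the labels name no pairing, so this is a description only.

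RUNX2, a factor of bone and mesenchyme, had a log2 fold change of 0.92 (adjusted p = 0.00444), under the 2-fold threshold, and then 1.20 (SE 0.20, adjusted p = 0.000515). ZEB2, a second EMT repressor, had 1.36 and 1.43 (adjusted p = 0.0458 and 0.0487). The AP-1 subunit JUN had 2.01 and 1.45, both past the test. Its partner FOSL1 had 2.36 and then 1.74 (SE 0.54, adjusted p = 0.0927), with 70.8, 43.5 and 20.7 CPM in control and 172, 198 and 77.8 CPM in withdrawn cells at day 6 posttreatment. The FOSL1 libraries of either group spread over more than a 2-fold range, and reads of its processed copy FOSL1P1, also among the 118, cannot be told from its own with certainty. Of the list of 22, 5 were higher at day 6 of exposure, and the 4 at day 6 posttreatment were among these genes.

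The other 6 transcription and chromatin factors were all higher at day 6 posttreatment, and 4 of them at day 6 of exposure. The circadian repressor BHLHE41 was at 1.03, 0.950 and 0.258 CPM in control and 5.52, 9.28 and 5.27 CPM in withdrawn cells (log2 fold change 3.30, SE 0.54, adjusted p = 0.000404). BMAL2, a partner of CLOCK, was at 44.7, 78.1 and 61.7 CPM in control and 143, 146 and 113 CPM in withdrawn cells (1.12, SE 0.20, adjusted p = 0.00114). The vitamin D receptor VDR had 2.80 at day 6 of exposure and 1.49 at day 6 posttreatment, and SPOCD1 had 2.16 and 2.14. HDAC9, a histone deacetylase, had 1.33 (adjusted p = 0.0604) and 1.81 (adjusted p = 0.00841), and CREB3L1, a membrane-bound factor of secretory cells, had 0.70 (adjusted p = 0.705) and 1.57 (adjusted p = 0.0295). In the whole list of 29 tested factors 8 were higher at day 6 of exposure, and the 6 at day 6 posttreatment were these 6.

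Of the interferon-stimulated genes 6 were among the 118, with 3 higher at day 6 of exposure and 4 at day 6 posttreatment. Their median log2 fold change was 1.49 and then 1.91. The guanylate-binding protein GBP1, an effector against intracellular pathogens, was at 1.31, 1.39 and 0.295 CPM in control and 5.93, 6.94 and 4.14 CPM in IL-1β libraries at day 6 of exposure. Once IL-1β had been gone for 6 days, it was at 1.03, 1.38 and 0.429 CPM in control and 5.30, 11.5 and 6.72 CPM in withdrawn cells (3.12, SE 0.54, adjusted p = 0.000658). Its neighbour GBP3 had 1.95 and 2.20, and the similarity of their sequences leaves the split of reads between them uncertain. SP140, a nuclear body protein, had 1.27 (adjusted p = 0.105) and 1.82 (adjusted p = 0.0105), and SAMD9L, which restrains translation, 0.52 (adjusted p = 0.867) and 1.99 (adjusted p = 0.0165). TRANK1 had 1.71 and 0.83 (adjusted p = 0.17). IFI16, a DNA sensor, had 0.69 (adjusted p = 0.827) and 1.83 (adjusted p = 0.101). In SP140, SAMD9L, IFI16, GBP1 and GBP3 alike, the highest withdrawn library at day 6 posttreatment was replicate 2, the one of high mitochondrial share. Of the 38 tested interferon-stimulated genes, 4 were higher at day 6 of exposure and 6 at day 6 posttreatment, with a median over the list of 0.38 and 0.47.

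**Figure D4:**
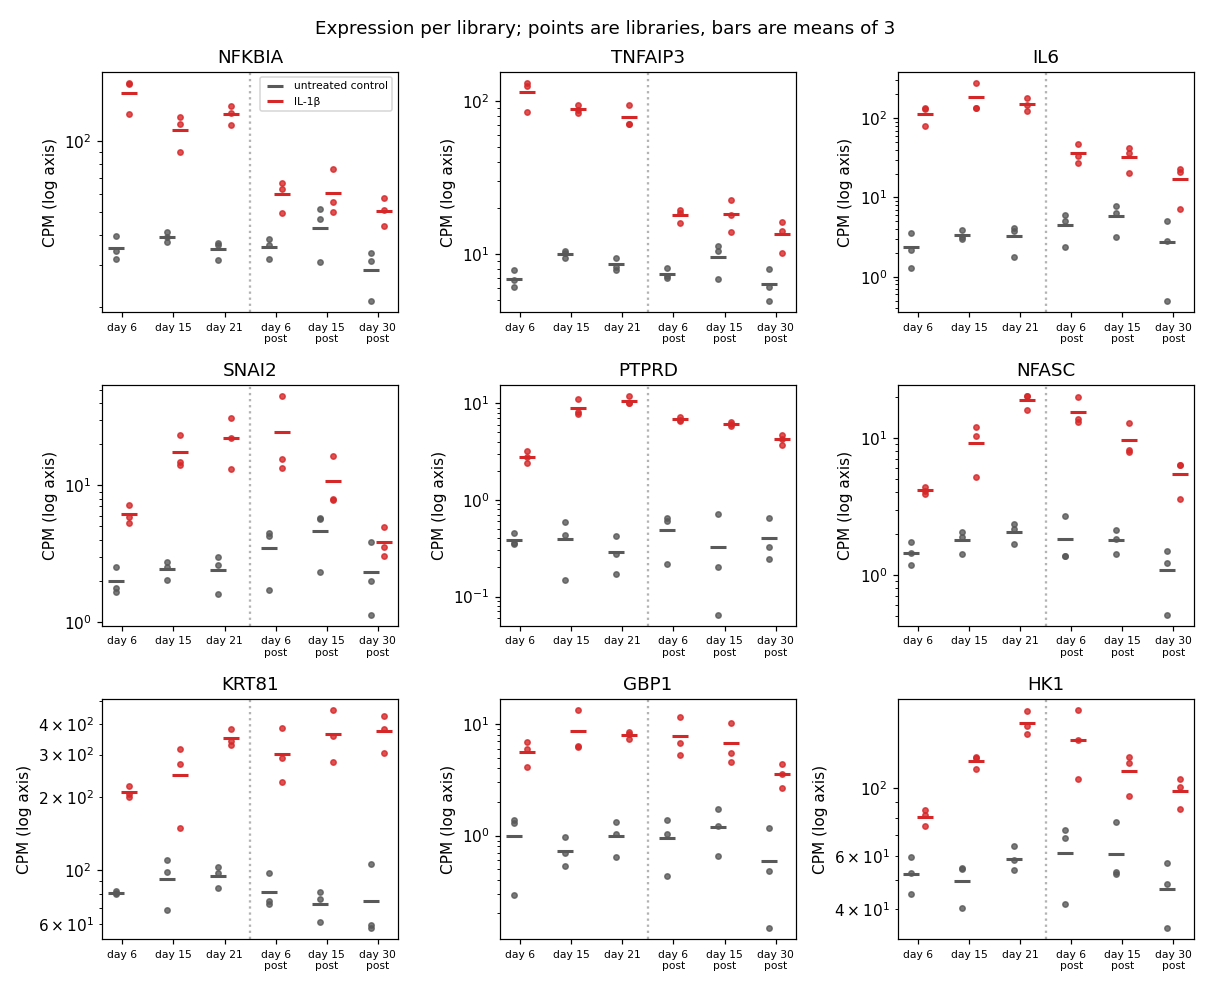
CPM per library (log axis) of 9 of the genes in untreated control and IL-1β cells at the 6 time points, with the dotted line at withdrawal. Points are libraries and bars are means of 3: the IL-1β libraries of NFKBIA and TNFAIP3 lie lower posttreatment than during exposure, while KRT81 lies between 231 and 459 CPM in withdrawn cells at the 3 times.

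Matrix and basement membrane genes were, with actin regulators, the largest of the named groups, with 10 genes. Of these 7 were higher at day 6 of exposure and 9 at day 6 posttreatment, and their median log2 fold change was 1.65 and then 2.34. Tenascin C, TNC, a matrix protein of wounds and tumours, was at 0.850, 0.696 and 0.650 CPM in control and 9.38, 8.92 and 11.2 CPM in IL-1β libraries at day 6 of exposure. By day 6 posttreatment it was at 2.06, 1.73 and 0.687 CPM in control and 15.0, 13.6 and 9.91 CPM in withdrawn cells (3.19, SE 0.51, adjusted p = 0.000289). The basement membrane protein nidogen 2, NID2, was at 2.42, 1.48 and 1.59 CPM in control and 2.97, 3.65 and 1.56 CPM in IL-1β libraries at day 6 of exposure, which overlap (0.55, adjusted p = 0.724). Later, at day 6 posttreatment, the libraries were at 3.22, 1.99 and 1.503 CPM in control and 12.6, 15.1 and 7.53 CPM in withdrawn cells (2.44, SE 0.38, adjusted p = 0.000179). Its exons overlap a gene on the opposite strand over 30.7% of their length.

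FSTL1, a secreted glycoprotein that binds TGF-β family ligands, had the smallest spread. It was at 35.3, 38.4 and 37.4 CPM in control and 95.5, 86.4 and 100.1 CPM in withdrawn cells at day 6 posttreatment (log2 fold change 1.34, SE 0.10, adjusted p = 1.32e-09). CCBE1, which helps to activate VEGFC, was at 7.48, 10.2 and 5.15 CPM in control and 43.1, 45.5 and 30.2 CPM in withdrawn cells (2.39, SE 0.30, adjusted p = 1.83e-05). CRISPLD2, a secreted glycoprotein, had 1.42 and 2.35, and the syndecan SDC4 had 1.62 and 1.30. Of the collagens, the transmembrane COL17A1 had 2.33 and 2.58, the transmembrane COL13A1 2.86 and 2.32, and the basement membrane chain COL4A5 0.78 (adjusted p = 0.218) and 1.61. ECM1 had 1.75 and then 1.16 (adjusted p = 0.0883). In the list of 52 tested matrix genes, 15 were higher and 2 lower at day 6 of exposure, and 13 were higher and 2 lower at day 6 posttreatment.

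Proteases and their inhibitors were 4 of the genes, and glycan enzymes were 2. The carboxypeptidase CPA4 was at 28.6, 25.5 and 15.1 CPM in control and 114, 72.7 and 85.7 CPM in withdrawn cells at day 6 posttreatment (log2 fold change 1.99, SE 0.34, adjusted p = 0.000597). The matrix proteases ADAMTS12 and ADAMTS14 had 1.29 and 2.16, and the inhibitor SERPINB7 2.57 (SE 0.34, adjusted p = 2.65e-05). All 4 were higher at day 6 posttreatment and 3 of them at day 6 of exposure, where ADAMTS12 had 0.92. Of the 39 tested proteases and inhibitors, 9 were higher at each time, with 0 and then 1 lower. DSE, which makes dermatan sulfate by epimerization, was at 8.38, 10.6 and 6.18 CPM in control and 34.2, 41.2 and 37.3 CPM in withdrawn cells (2.17, SE 0.26, adjusted p = 7.98e-06). GALNT9, which starts O-glycans, had 1.27 (adjusted p = 0.0508) and 1.87 (adjusted p = 0.0029). Of the 27 tested genes of glycan and proteoglycan synthesis, 2 were higher at day 6 of exposure and 5 at day 6 posttreatment, with 0 lower.

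Hair keratins and a basal keratin were the 5 keratins among the 118. They were all higher at day 6 of exposure, and 4 of them at day 6 posttreatment. KRT81, a hair keratin, was at 82.0, 79.8 and 80.1 CPM in control and 222, 206 and 199.9 CPM in IL-1β libraries at day 6 of exposure. In the day 6 posttreatment libraries it was at 97.7, 72.6 and 74.3 CPM in control and 386, 231 and 289 CPM in withdrawn cells. The groups did not overlap, and the log2 fold change was 1.38 (SE 0.25) and then 1.89 (SE 0.25, adjusted p = 3.39e-05). The hair keratin KRT86 had 1.07 and 1.83, the pseudogene KRT87P 1.33 and 1.92, KRT85 1.19 and 1.96, and the basal keratin KRT15 1.14 and 0.91 (adjusted p = 0.0768).

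KRT81, KRT86, KRT87P and KRT85 lie close together on chromosome 12 (GRCh37). KRT81 spans chr12:52679697-52685318 and KRT87P spans chr12:52644250-52652337, both on the minus strand and inside the span annotated for KRT86 on the plus strand, chr12:52643084-52702947. These genes are close copies of each other, so their reads may be shared, and the 4 values are not independent. KRT8 and KRT18, the keratins of simple epithelia, had medians of 3275 and 1798 CPM over the control libraries and 993 and 618 CPM over the IL-1β libraries of all times. Of the 15 keratins tested, 7 were higher and 2 lower at day 6 of exposure, and 6 were higher and 1 lower at day 6 posttreatment.

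The 10 regulators of small GTPases and the actin cytoskeleton had 8 higher at day 6 of exposure and 9 at day 6 posttreatment. ABLIM3, an actin-binding LIM protein, was at 8.77, 7.26 and 5.28 CPM in control and 32.8, 34.4 and 27.9 CPM in withdrawn cells at day 6 posttreatment (log2 fold change 2.17, SE 0.24, adjusted p = 3.16e-06). LIMA1, which bundles actin filaments, was at 16.3, 18.2 and 14.2 CPM in control and 20.6, 24.3 and 20.5 CPM in IL-1β libraries at day 6 of exposure (0.43, adjusted p = 0.439). After withdrawal, at day 6, it was at 15.3, 19.1 and 14.2 CPM in control and 41.9, 49.7 and 34.4 CPM in withdrawn cells (1.37, SE 0.21, adjusted p = 0.000204). The difference between the LIMA1 responses was 0.95 and did not pass the test. ARHGAP31, which turns off CDC42 and RAC1, had 1.50 and 1.55, and the formin FHOD3 had 1.19 and 1.33. AFAP1L1 had 1.56 and 1.36, and MPP1, a membrane scaffold, had 1.04 (adjusted p = 0.0934) and 2.17 (adjusted p = 0.000124). The membrane protein EMP1 had 1.06 and 1.35, the pleckstrin PLEK2 1.93 and 1.75, and the coronin CORO2B 2.86 and 2.01. ARHGEF4, an exchange factor, was the exception at day 6 posttreatment, with 0.46 (adjusted p = 0.946). Of the 39 tested genes of this list, 13 were higher at each time, with 2 and 0 lower.

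Neuronal, synaptic and vesicle-release proteins, taken as 1 list, were 7 of the 118, with 7 higher at day 6 of exposure and 5 at day 6 posttreatment. PTPRD, a receptor tyrosine phosphatase of synapse formation, had the largest mean difference over days 15 and 30 posttreatment of all 118 (2.85 on the log2 scale of the rule). It was at 0.458, 0.348 and 0.354 CPM in control and 2.76, 2.41 and 3.21 CPM in IL-1β libraries at day 6 of exposure (log2 fold change 2.83, SE 0.42). Once IL-1β had been gone for 6 days, it was at 0.645, 0.605 and 0.215 CPM in control and 6.72, 6.49 and 7.30 CPM in withdrawn cells (3.96, SE 0.42, adjusted p = 1.53e-06). At day 30 posttreatment the libraries were still at 0.323, 0.643 and 0.246 CPM in control and 4.28, 4.68 and 3.74 CPM in withdrawn cells. The control counts are few, which leaves the size of the fold uncertain, and the groups were apart at all these times.

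NFASC, the adhesion molecule neurofascin, was at 2.71, 1.38 and 1.37 CPM in control and 19.8, 13.8 and 12.98 CPM in withdrawn cells at day 6 posttreatment (log2 fold change 3.15, SE 0.34, adjusted p = 1.53e-06). At day 6 of exposure it had 1.51 (SE 0.33), and the difference between the responses, 1.63, passed only with both the replicate number and the high mitochondrial share as covariates. NID2 behaved alike in that fit. KCNQ3, a potassium channel subunit, had 1.66 and 1.74, SORCS2, a neurotrophin receptor partner, had 1.82 and 1.68, and KIAA1549L had 1.72 and 1.29. SYTL3, a vesicle docking protein, had 1.55 and then 0.72, and ANK2, an ankyrin, had 1.07 and 0.97 (adjusted p = 0.0243), both under the 2-fold threshold at the later time. Of the 28 tested genes of the list, 9 were higher at day 6 of exposure and 10 at day 6 posttreatment, with 0 lower.

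Metabolic enzymes were 8 of the genes, with 7 higher at day 6 of exposure and 4 at day 6 posttreatment. Hexokinase 1, HK1, which traps glucose in the cell, was at 52.8, 59.2 and 45.0 CPM in control and 84.5, 74.9 and 81.5 CPM in IL-1β libraries at day 6 of exposure (log2 fold change 0.62, adjusted p = 0.101). By day 6 posttreatment it was at 72.7, 68.8 and 41.6 CPM in control and 144, 181 and 108 CPM in withdrawn cells (1.24, SE 0.21, adjusted p = 0.000471). The AMP deaminase AMPD3 had 2.30 and 1.38, and aldehyde oxidase, AOX1, had 1.72 and 1.89. The GABA transaminase ABAT had 1.82 and 2.24, and at the time points of the rule its IL-1β libraries were at 30.5, 32.9 and 27.3 CPM at day 21 and at 3.08, 3.20 and 3.54 CPM at day 15 posttreatment. ASS1, which makes argininosuccinate, was at 6.93, 5.92 and 3.90 CPM in control and 51.0, 52.1 and 19.5 CPM in IL-1β libraries at day 6 of exposure (2.87, adjusted p = 0.000289). At day 6 posttreatment its groups overlapped (0.62, adjusted p = 0.925). GFPT2 of the hexosamine pathway had 1.53 and 0.61 (adjusted p = 0.0257), the lipid phosphatase PLPP3 1.46 and 0.67 (adjusted p = 0.192), and xanthine dehydrogenase, XDH, 2.50 and 1.35 (adjusted p = 0.134). In the list of 29, 14 were higher at day 6 of exposure and 7 at day 6 posttreatment, with 0 lower.

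Membrane transporters and tetraspanins were 4 of the genes, with 3 higher at day 6 of exposure and 2 at day 6 posttreatment. SLCO2B1, an organic anion transporter, was at 3.99, 3.74 and 3.54 CPM in control and 42.4, 44.4 and 47.1 CPM in IL-1β libraries at day 6 of exposure (log2 fold change 3.57). Later, at day 6 posttreatment, the libraries were at 4.38, 3.46 and 4.72 CPM in control and 20.6, 9.51 and 13.9 CPM in withdrawn cells (1.81, SE 0.38, adjusted p = 0.00501). The tetraspanin TSPAN7 had log2 fold changes of 0.89 at day 6 of exposure and 1.47 at day 6 posttreatment, and TSPAN18 had 2.36 and 1.15 (adjusted p = 0.276). Of the exons of TSPAN7 23.0% overlap a gene on the same strand. In the list of 28 tested transporters and tetraspanins, 5 were higher and 2 lower at day 6 of exposure, and 3 were higher and 2 lower at day 6 posttreatment. CGB8, a chorionic gonadotropin beta gene with near-identical neighbours, had 1, 2 and 3 counts in the control libraries of day 6 of exposure, at the floor of 3 counts. Its log2 fold change at day 6 posttreatment was 3.00 (SE 0.72, adjusted p = 0.0149). Of the 7 tested genes of its cluster 3 and then 1 were higher.

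A single chemokine and a single integrin met the rule. CCL20, which attracts CCR6-bearing lymphocytes, was at 0.262, 0.348 and 0.177 CPM in control and 43.9, 40.0 and 31.6 CPM in IL-1β libraries at day 6 of exposure. In the day 6 posttreatment libraries it was at 0.774, 0.259 and 0.515 CPM in control and 2.24, 2.09 and 2.201 CPM in withdrawn cells, apart from control but far below the earlier level. The control counts of CCL20 are few, which leaves the size of its fold uncertain. On the log2 scale of the rule its difference was 5.75 at day 6 of exposure and 1.45 at day 6 posttreatment. ITGB3 had a log2 fold change of 1.41 and then 2.11, and 33.2% of the length of its exons is shared with a readthrough gene on the same strand. Of 14 tested chemokines and receptors 7 were higher and 1 lower at day 6 of exposure, and 2 were higher at day 6 posttreatment, while of 21 integrin subunits 3 were higher at each time.

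The remaining 26 genes were in no list, with 17 higher at day 6 of exposure and 16 at day 6 posttreatment. C15orf48, a mitochondrial protein induced in inflammation, was at 2.35, 2.87 and 1.42 CPM in control and 221, 218 and 84.6 CPM in IL-1β libraries at day 6 of exposure (log2 fold change 6.32). After withdrawal, at day 6, it was at 3.74, 4.15 and 2.88 CPM in control and 9.503, 8.70 and 11.1 CPM in withdrawn cells (1.47, adjusted p = 0.0662). GLIPR1 had 2.61 and 1.90, CDCP1, a SRC substrate at the cell surface, had 1.92 and 0.93, and MARCHF4, a ubiquitin ligase, had 3.10 and 1.99. Of the exons of GLIPR1 24.4% overlap a gene on the opposite strand, and of those of C15orf48 21.6% overlap genes on the same strand and 12.03% a gene on the opposite one. IGFN1 had 0.99 (adjusted p = 0.139) and 1.71 (adjusted p = 0.00518). The identifier ENSG00000180672, without a symbol in the annotation used, had 2.09 and 1.18, both past the test.

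Further genes outside the lists included DMBT1. It encodes a secreted scavenger receptor protein and was at 1.42, 0.605 and 0.687 CPM in control and 7.54, 4.75 and 4.63 CPM in withdrawn cells at day 6 posttreatment (log2 fold change 2.73, SE 0.59, adjusted p = 0.00638). The DMBT1 groups did not overlap. PID1, an adaptor that dampens insulin signalling, had 3.04 at day 6 of exposure and 1.39 at day 6 posttreatment. The calcium channel ITPR2 had 1.18 and 1.44, NIBAN1 2.25 and 1.42, SBSN, a protein of stratified epithelia, 3.53 and 2.31, and IGDCC4 2.34 and 1.78. LHFPL6 had 1.41 and 1.20, DAW1 2.27 and 1.84, and INSYN2B 2.94 and 3.46, all past the test. SHISAL1 had 1.36 (adjusted p = 0.171) and 2.66 (adjusted p = 0.000699).

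The 5 long non-coding RNAs included MEG3, an imprinted RNA, and MIR100HG, the host of a microRNA cluster. MEG3 was at 1.29, 1.55 and 0.988 CPM in control and 4.04, 3.36 and 3.77 CPM in withdrawn cells at day 6 posttreatment (1.57, SE 0.33, adjusted p = 0.0041), without overlap. MIR100HG had 1.35 (adjusted p = 0.0912) and 1.49 (adjusted p = 0.0726), LINC00707 1.14 and 1.30, and LINC02015 2.62 and then 0.95 (adjusted p = 0.7). The 7 genes called at neither time were LINC00707, MIR100HG, LY6K, EVI2B, FOSL1P1, IFI16 and 1 further gene without a symbol in the annotation used. Of the exons of LY6K 80.8% overlap a gene on the opposite strand, and 30.0% of those of EVI2B a gene on the same strand.

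In untreated cells none of the genes passed the test for a change over the same interval. Between day 6 of exposure and day 6 posttreatment, 0 of the 118 genes differed in control cells by edgeR's quasi-likelihood test, beside 0.0% of all genes higher and 0.00521% lower, and DESeq2 also called 0. At an unadjusted p under 0.05 there were 25, counting both directions, beside 3.55% of all genes. Without replicate 3, 13 of the 118 genes were higher in the later control cells, among them FOSL1, EREG, CPA4 and MARCHF4, beside 0.116% of all genes tested in that fit. For FOSL1 the control libraries were at 13.1, 20.5 and 23.5 CPM at the earlier and 70.8, 43.5 and 20.7 CPM at the later time, where the first and second have a high mitochondrial share.

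At the 4 time points of the rule the median log2 fold change of the 118 genes was 1.99 at day 15 and 2.08 at day 21 of exposure, and 1.41 at day 15 and 1.20 at day 30 posttreatment. Scaling by total counts alone moved the median of all genes at day 15 posttreatment by 0.19. The largest of the 6 differences fell at day 6 of exposure for 37 genes, at day 15 for 24, at day 21 for 33 and posttreatment for 24. After PTPRD, the largest mean differences over days 15 and 30 posttreatment on the scale of the rule were those of IL6 (2.65), KRT81 (2.49), KCNQ3, KRT86 and KRT87P (2.33 each). KRT81 was at 106, 59.6 and 57.6 CPM in control and 434, 382 and 304 CPM in withdrawn cells at day 30 posttreatment. KCNQ3 was at 2.15, 1.93 and 1.62 CPM in control and 13.4, 13.5 and 9.78 CPM in withdrawn cells. In 70 of the 118 genes the 3 IL-1β libraries lay above the 3 controls at all 6 time points, beside 0.839% of all genes tested. Because 4 of these time points chose the genes, this count is a description only.

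Just inside the threshold of 0.7 lay NFKBIA, with a smaller posttreatment difference of 0.702, TNFRSF9 with 0.702 and IRAK2 with 0.705. In the fit with TMM scaling, NFKBIA had log2 fold changes of 0.49 at day 15 and 0.82 at day 30 posttreatment, and IRAK2 0.90 and 0.54. At day 15 posttreatment NFKBIA was at 51.4, 46.8 and 30.8 CPM in control and 76.1, 55.4 and 50.1 CPM in withdrawn cells, which overlap. Just outside lay CTSS, a lysosomal protease, with 0.684, LAMB3, a laminin chain, with 0.681, and KYNU, an enzyme of tryptophan breakdown, with 0.678. LAMB3 had a difference of 2.64 at day 21 and 1.71 at day 6 posttreatment.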

How the data were processed

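RNA of A549 cells was sequenced as single-end HiSeq reads from a stranded kit. The authors aligned them to GRCh37 with TopHat2 and counted reads per Ensembl gene with HTSeq-count, and the deposited values are these raw counts, without normalization. The strand setting and annotation release are not given in the sources used here. The HTSeq-count lines for reads on no gene (8.48% to 18.6% of reads counted) and ambiguous reads (2.62% to 4.18%) were left out. Gene positions and biotypes are those of GENCODE v44lift37 on GRCh37.

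With edgeR 4.0.16 in R 4.3.3, genes were kept by filterByExpr over the 12 groups, which left 19180 of the 39471 genes detected. Library sizes were scaled by TMM, and all 36 libraries entered 1 quasi-likelihood fit (24 residual degrees of freedom). Expression in the text is CPM with this scaling, except for the rule and the cell type markers, KRT8 and KRT18 included, which are CPM on total gene counts. This fit gave all p-values not stated to be of another fit. They were adjusted by Benjamini-Hochberg over the genes tested unless called unadjusted. A gene was called at an adjusted p under 0.05 with a log2 fold change beyond 1. The scripts were tested on simulated data. A group with 3 or fewer counts in each of its libraries was taken as at the floor, which covers counting error only.

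The 118 genes and the functional lists were chosen with earlier results of these data known. Genes named were, per list, up to 4 by mean CPM over all libraries, further members to complete each account, the 6 with the largest mean posttreatment difference, those next to the threshold, those called in the difference of responses, those sharing reads with near copies, and those whose promoter is shown. Members named beyond this rule were chosen after their values were seen. The values of 3 of the 118 genes are not reported here by name, though counts and medians include them. A list gene (SOD2) and a marker (PECAM1) were not matched to an identifier. The alternatives were DESeq2 1.42.0, other scalings and filters, a likelihood ratio test, a fit of the time points alone, the replicate number as a block, each replicate left out and, since 11 libraries had over 10% mitochondrial counts, fits with that as a covariate or without them. Counts by list under each alternative were added after seeing the data. Same-numbered control and IL-1β libraries deviated from their group means with correlations from -0.34 to 0.72 across genes, over 0.1 in 14 of 18 pairs but not in every pair of either tested time point, and the labels name no shared batch, so the main model has no block.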

Additional observations from a re-analysis of the deposited data

Results flagged for a closer look

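In 6 genes the response to IL-1β at day 6 posttreatment differed from that at day 6 of exposure by a test of the difference itself. The change in log2 fold change between the 2 times was -5.08 (SE 0.70, adjusted p = 0.000102) for CCL20 and -4.85 (SE 0.62, adjusted p = 3.67e-05) for C15orf48. It was -2.77 (SE 0.30, adjusted p = 1.78e-06) for TNFAIP3, -2.29 (SE 0.34, adjusted p = 0.000374) for IRAK2 and -1.43 (SE 0.27, adjusted p = 0.00975) for NFKBIA. It was -1.77 (SE 0.34, adjusted p = 0.0104) for ENSG00000143466, which has no symbol in the annotation used. The adjusted p-values are those of edgeR's quasi-likelihood test. CCL20 has few control counts, which leaves the size of its change uncertain, and a filter of at least 10 counts in every library removed it. All 6 were higher at day 6 of exposure, and CCL20 and TNFAIP3 were also called higher at day 6 posttreatment. The promoters of CCL20, TNFAIP3 and NFKBIA hold the kappa B motif and that of IRAK2 does not, and C15orf48 and ENSG00000143466 were not in the table of promoters. Those of IL6, TNFRSF9, SERPINB7 and MIR100HG also hold it, and these genes were not called in the difference by this test. CCL20 and TNFAIP3 were called in the difference with each replicate left out in turn, while NFKBIA, IRAK2, C15orf48 and ENSG00000143466 were not called without replicate 1. NFKBIA was also not called without replicate 2 (adjusted p = 0.251), with scaling by total counts alone (0.197) or with the time points fitted alone (0.0592). ENSG00000143466 was not called without replicate 2 (0.517), without the libraries of high mitochondrial share (0.154) or with scaling by total counts alone (0.131). Over the alternatives the adjusted p ranged up to 1 for NFKBIA and up to 0.847 for ENSG00000143466, both without replicate 1.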

How the results depend on the processing

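The number of genes higher at day 6 of exposure was 93, and 61 where at least 10 counts were required in every library, a filter that left 74 of the 118 genes in the test. Leaving out a replicate gave 44 to 90, the lowest without replicate 1, beside 0.557% of all genes tested in that fit. At day 6 posttreatment it was 88, and 53 with that filter, 0 when the 6 libraries were fitted alone, and 13 to 78 with a replicate left out. The 0 and the 13, the latter without replicate 1, stood beside 0.0% and 0.0937% of all genes in their fits. The cause of these falls was not tested, beyond the smaller number of genes or libraries. All tested genes of the set kept a log2 fold change above 0 at both times under each alternative fit. With the replicate number as a block, 100 genes were higher at day 6 of exposure and 90 at day 6 posttreatment, 6 had a smaller response at the later time, and 0 a larger one. The block with the high mitochondrial share as covariate gave 2 larger responses (NID2 and NFASC) and 12 smaller ones. That covariate without the block gave 10 smaller ones, beside 0.255% of all genes. For the other fits in this paragraph no share of all genes is given. Their counts describe the fit and are not read as a result about the set. Leaving out a replicate gave 2 to 7 smaller responses, the lowest without replicate 1, beside 0.0364% of all genes in that fit. For untreated cells it gave 0 to 13 genes changed, the highest without replicate 3, beside 0.116% of all genes called higher in that fit. Requiring a difference of at least 1 after withdrawal in the rule left 66 genes, and a pseudocount of 1 left 87. TMM scaling in the rule chose 97 genes, 93 of them among the 118, and leaving out the libraries of high mitochondrial share chose 95, of which 81 were. Leaving out a replicate chose 89 to 124 genes, which held 85 to 99 of the 118. Of 1314 alternative values of 73 named genes, 1145 kept direction and side of the threshold, 131 fell below it and 38 passed it, and 0 reversed. The 73 do not cover every gene named, and they include CTSS, LAMB3 and KYNU, which did not meet the rule. The fit of the time points alone, which called 0 of the set at day 6 posttreatment, is not among these values. Nor are the likelihood ratio test, the fits without a filter or with at least 10 counts, or the block with covariate. Depth limits genes near 1 CPM, such as EVI2B and CGB8, whose fold changes have standard errors of 0.72 to 1.09. Libraries of the withdrawn and control cells differ in mitochondrial share, and replicate cultures may be shared between time points.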
